A study of Mus musculus with 15 samples.

Results

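The transcriptome of the irradiated, Gli1-treated mouse submandibular gland (IR+Gli1) was compared with that of the untreated gland (NT) over all genes. NT glands came from adult male C57BL/6 mice that were wild type and non-treated. IR+Gli1 glands came from adult males of the same strain, 7 days after local irradiation and with transfer of the Gli1 gene into the gland. The comparison therefore spans irradiation, the transfer procedure and the transferred gene together, and these 3 cannot be told apart from IR+Gli1 and NT alone. Irradiated wild-type glands with no transfer (IR), and irradiated glands given GFP (IR+GFP) or Shh (IR+Shh), all at 7 days, are set beside it where they place a gene. The vector, its dose, the radiation dose and the time between irradiation and transfer are not given in the sources used here.

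The 2 groups hold 6 of the series' 15 libraries. NT 2 differed from NT 3, and IR+Gli1 1 from IR+Gli1 2, by less than the sampling noise of their reads. Each such pair was counted as 1 sample, and the other groups were treated alike. This left n = 2 samples per group, NT 1 and NT 2-3 against IR+Gli1 1-2 and IR+Gli1 3, and values are given in that order. The labels do not say whether libraries came from separate animals, so a p-value reflects the spread of these samples alone, which may be technical. A level is given in CPM, the read count of a gene relative to its library's TMM-scaled total, and compares 1 gene between samples, not genes of different length. Differences are log2 fold changes with their standard error (SE) from edgeR's quasi-likelihood test, fitted to all 10 samples, and a gene passed at a Benjamini-Hochberg adjusted p under 0.05. Of 39179 genes in the tables, 14300 had enough reads to be tested.

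The submandibular gland of the male mouse makes saliva in acini and stores growth factors and kallikreins in granular convoluted tubules, a duct segment that depends on androgen. Ionizing radiation breaks DNA and activates p53, whose targets halt the cell cycle and promote cell death. Gli1 is a transcription factor at the end of the Hedgehog pathway, and Shh is the pathway's secreted ligand. Interferons, made when cells sense foreign nucleic acid or other danger, act through transcription factors such as STAT2 and IRF9 on genes whose promoters carry interferon-stimulated response elements. Cytokines such as interleukin-6 and tumour necrosis factor induce the acute phase proteins, secreted defence proteins of which serum amyloid A is a known example.

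Mouse Gli1 itself did not pass between the groups. It measured 0.607 and 0.514 CPM in NT and 0.54 and 0.672 CPM in IR+Gli1 (log2 fold change 0.08 ± 0.33, adjusted p = 0.938), and 0.612 and 0.703 CPM in IR. The 4 NT and IR+Gli1 samples overlapped, and the higher levels of the series were the 2.69 and 4.24 CPM of IR+Shh. Gli1 passed as higher in IR+Shh than in NT (2.48 ± 0.33, adjusted p = 0.00954). It passed as lower in IR+Gli1 than in IR+Shh (-2.40 ± 0.32, adjusted p = 0.00879). Shh was listed at 0 in all 10 samples. The species of the transferred genes is not given in the labels, and whether their transcripts would be counted as the mouse genes was not tested, so the levels of Gli1 and Shh check neither label. Group names below are those of the labels. Of 15 Hedgehog genes tested, 2 passed as higher and 0 as lower, beside 12.3% and 11.4% of all genes tested. They were Boc, a co-receptor (0.58 ± 0.12), and Sufu, a pathway inhibitor (0.37 ± 0.11), which passed in 0 of 4 fits with 1 NT or IR+Gli1 sample left out. Ptch1, receptor and target of the pathway, measured 10.01 and 7.3 CPM in NT and 7.64 and 10.2 CPM in IR+Gli1 and did not pass (adjusted p = 0.92). Boc did not pass without IR+Gli1 1-2 (adjusted p = 0.0512).

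Of the 14300 genes tested, 1754 were higher in IR+Gli1 than in NT (12.3%) and 1635 lower (11.4%). At an unadjusted p under 0.05 there were 5400. The median change over all genes was 0.03 on the log2 scale. List counts of IR+Gli1 against NT below are to be read beside the shares of 12.3% and 11.4%. Set beside IR, the groups called 1387 genes higher (9.7%) and 1117 lower (7.81%) in IR+Gli1. Against IR+GFP, 1177 genes were higher (8.23%) and 816 lower (5.71%), and against IR+Shh 714 (4.99%) and 395 (2.76%). Fits of only the 2 groups compared called 1232, 1 and 9 genes against IR, IR+GFP and IR+Shh. Calls against IR+GFP and IR+Shh, here and in the lists below, therefore rest on the spread of all 10 samples. The other irradiated groups differed from NT in fewer genes. IR had 74 higher (0.517%) and 23 lower (0.161%), IR+GFP 89 (0.622%) and 17 (0.119%), and IR+Shh 194 (1.36%) and 129 (0.902%). The numbers of genes called in these comparisons were not tested against each other.

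IR+Gli1 1-2 stood further from NT than IR+Gli1 3 in most of these genes. Among the 1754 higher genes it was the higher IR+Gli1 sample in 1351 (77%), and among the 1635 lower genes it was the lower one in 1150 (70.3%). Without IR+Gli1 1-2 the test called 1075 higher and 903 lower, and without NT 2-3 it called 1093 higher. The fit of the 4 NT and IR+Gli1 samples alone called 519 higher and 342 lower. In the lists described below that fit called fewer genes as well. As higher it gave 8 acute phase genes in place of 16, 5 chemokines in place of 14, 9 NF-kB genes in place of 21, 4 macrophage genes in place of 15, 7 T and NK cell genes in place of 14 and 21 p53 targets in place of 32. It also gave 4 duct genes in place of 8, 3 basal genes in place of 7 and 4 endothelial genes in place of 7. Monocyte and neutrophil genes went from 4 to 0, senescence genes from 4 to 0 and MHC class II genes from 5 to 1. As lower it gave 3 other tubule products in place of 7, 12 ER genes in place of 27 and 9 cholesterol genes in place of 16. Kallikreins went from 13 to 4 and secretoglobins from 3 to 1. Saa3 and Cdkn1a passed in that fit, and Egf did not (adjusted p = 0.0853). Ccl2, Ccl7, Slfn4, Ly6c2 and Plac8 did not pass there either (adjusted p = 0.0609 to 0.0692). Of the 142 genes named by rule that passed, 101 passed with any 1 of the 4 samples left out and 81 in that smaller fit. Same-numbered libraries of IR+GFP and IR+Gli1 deviated together from their group means (r = 0.493 to 0.521 in 3 pairs). With a block for those numbers 2192 genes were higher and 2001 lower than in NT, and 1715 differed from IR+Shh in place of 1109. Both IR+Gli1 samples lay above all 8 samples of the other groups in 1276 of the higher genes (72.7%), and below all 8 in 1243 of the lower genes (76%).

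The libraries also differed in composition. The 10 most abundant genes took 24.5% and 38.1% of the gene reads in IR+Gli1, against 45.5% to 53.2% in the other 8 samples. The TMM factor, which corrects for this, was 1.72 and 1.31 in IR+Gli1 and 0.86 to 0.99 elsewhere. Scaling by total counts instead moved the median of all genes to 0.77 and the calls to 9259 higher and 226 lower. Small changes therefore depend on the scaling. Lists whose median it turned are named below, as are some but not all of the counts it changed by over 1.5 times. In lists whose counts are small, it moved the number higher from 2 to 22 of 35 DNA repair genes, from 7 to 15 of 18 basal genes, from 2 to 11 of 15 Hedgehog genes, from 3 to 8 of 16 trophic factors, from 4 to 11 of 17 senescence genes and from 0 to 5 of 9 nerve genes.

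Saa3, Cdkn1a and Egf mark the comparison's main gene groups. Saa3 (ENSMUSG00000040026, chr7:46711998-46715700 in GRCm38), an acute phase serum amyloid A, measured 0.0607 and 0 CPM in NT and 57.6 and 38.4 CPM in IR+Gli1. It was all but absent from both NT samples and high in both IR+Gli1 samples. The pooled ratio was 1553, with a 95% counting interval of 430 to 12831 because NT had 2 reads, and the test gave a log2 fold change of 8.85 ± 0.64, adjusted p = 0.000586. The other 6 samples ranged from 0 to 0.607 CPM, so irradiation without Gli1 did not bring Saa3 near this level.

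Cdkn1a (chr17:29090976-29100727), the p53 target p21 that arrests the cell cycle, measured 1.4 and 1.17 CPM in NT and 125 and 67.5 CPM in IR+Gli1 (log2 fold change 6.14 ± 0.40, adjusted p = 0.000294). The IR samples, at 22.3 and 24 CPM, lay between, without overlap on either side. Egf (chr3:129677565-129755316), the growth factor that granular tubules secrete, went the other way, from 61477 and 59044 CPM in NT to 6389.7 and 18711 CPM in IR+Gli1 (log2 fold change -2.26 ± 0.45, adjusted p = 0.00788). IR had 79143 and 53087 CPM of Egf, around the level of NT, and IR+Shh 29683 and 36637 CPM, below it.

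**Figure D1:**
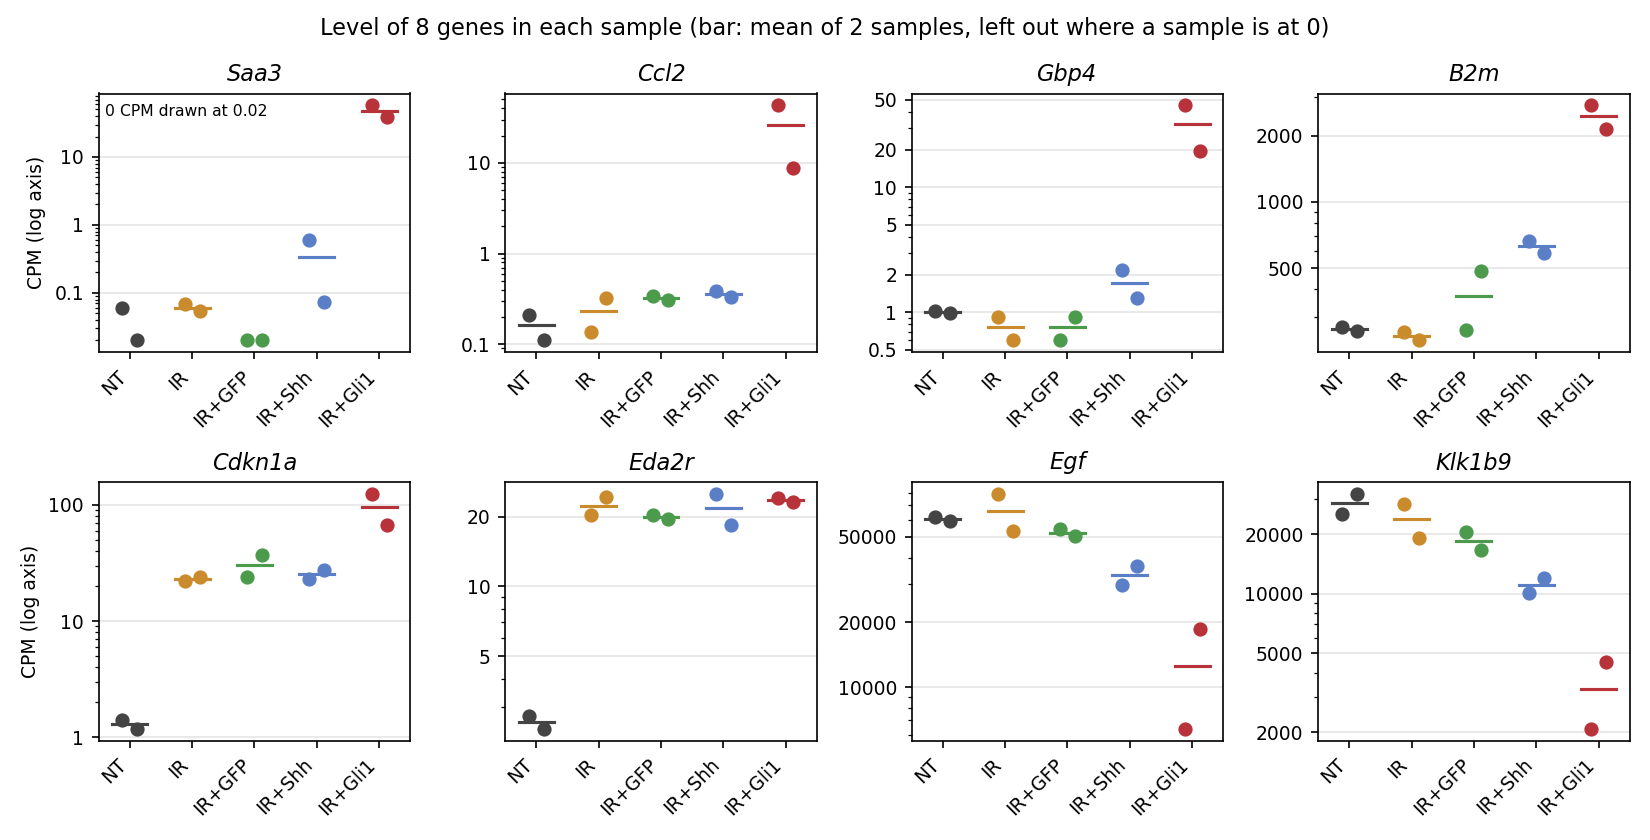
Level of single genes in each of the 10 samples (8 genes, CPM on a log axis with 0 drawn at 0.02, 1 point per sample, bar at the mean of 2 samples, groups on the horizontal axis). Saa3 lies between 0 and 0.607 CPM in the 8 samples outside IR+Gli1 and at 57.6 and 38.4 CPM in IR+Gli1, Cdkn1a rises in steps from NT to the irradiated groups to IR+Gli1, and Egf is lowest in IR+Gli1 1-2.

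All 37 tested genes of a type I interferon list, all 15 interferon-inducible GTPases and all 20 MHC class I presentation genes were higher in IR+Gli1, beside 12.3% of all genes. Their median log2 fold changes were 3.49, 3.95 and 2.53, beside 0.03 for all genes. With 1 sample left out, 34 to 37, 14 to 15 and 18 to 20 of them passed. In the fit of NT and IR+Gli1 alone, 30, 14 and 16 passed.

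The promoters of many of these genes share a short motif, and 6 of them are printed to show it. The core of the interferon-stimulated response element was searched as GAAANNGAAA on either strand (TTTCNNTTTC on the printed strand when it lies on the other) from 250 bases before to 50 bases after the start, in RefSeq promoters of GRCm38.p6. Capitals mark the core, N included, and each run is 80 bases, 5′ to 3′ on the gene's strand. The genes are Stat2 (chr10:128270248-128270327, plus strand), a transcription factor of the interferon signal; Isg15 (chr4:156200840-156200919, minus strand), a ubiquitin-like modifier; Ifit1 (chr19:34640769-34640848, plus strand), which binds viral RNA; the GTPases Gbp2 (chr3:142620569-142620648, plus strand) and Igtp (chr11:58199476-58199555, plus strand); and B2m (chr2:122147513-122147592, plus strand), the light chain of MHC class I.
Stat2: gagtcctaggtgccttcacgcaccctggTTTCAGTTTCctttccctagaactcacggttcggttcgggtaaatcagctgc
Isg15: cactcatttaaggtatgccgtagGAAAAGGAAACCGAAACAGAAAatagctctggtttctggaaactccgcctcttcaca
Ifit1: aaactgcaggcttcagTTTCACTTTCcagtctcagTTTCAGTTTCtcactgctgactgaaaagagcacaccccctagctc
Gbp2: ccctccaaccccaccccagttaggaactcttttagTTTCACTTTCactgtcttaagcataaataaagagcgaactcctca
Igtp: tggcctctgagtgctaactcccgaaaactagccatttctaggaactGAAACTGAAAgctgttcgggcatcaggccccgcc
B2m: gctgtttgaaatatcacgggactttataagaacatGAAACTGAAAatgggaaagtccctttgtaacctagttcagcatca

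The motif was present in the promoters of 9 of 10 GTPases with a RefSeq promoter (90%), 13 of 25 genes of the interferon list (52.0%) and 5 of 17 MHC class I genes (29.4%). It was present in 421 of the 10795 tested genes with a promoter (3.90%) and in 1079 of all 27025 genes (3.99%), or 1131 of 32851 promoter windows (3.44%). Among all genes higher in IR+Gli1 it was found in 121 of 1321 (9.16%), and among those lower in 38 of 1315 (2.89%). It was found in 1 of 30 p53 targets, 0 of 28 genes of ER folding and 0 of 14 kallikreins. A related core, TTCNNNGAA, to which STAT dimers bind, was found in 132 of the 1321 higher genes (9.99%), beside 8.30% of tested genes and 9.55% of all genes. A match describes these letters and is not a measured binding site.

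Genes of the sensing and relay of the interferon signal rose in both IR+Gli1 samples. Stat2, whose promoter is printed above, measured 18.4 and 19 CPM in NT and 91.4 and 67 CPM in IR+Gli1 (log2 fold change 2.08 ± 0.16, adjusted p = 0.000294). The 2 IR+Gli1 samples lay above every other sample of the series. The cytosolic RNA sensors Ddx58 (RIG-I; 2.05 ± 0.17) and Ifih1 (MDA5; 1.77 ± 0.15) also rose. Irf7, the interferon-induced transcription factor that amplifies interferon production, was chosen after its values were seen, like Isg15, Ifit1, Gbp2 and Igtp below. It measured 6.76 and 11.2 CPM in NT and 507 and 263 CPM in IR+Gli1 (5.41 ± 0.60, adjusted p = 0.00232).

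Effector genes rose as well. Isg15 measured 1.94 and 1.91 CPM in NT and 92.3 and 26.7 CPM in IR+Gli1 (4.91 ± 0.72, adjusted p = 0.00532). Ifit1 measured 1.3 and 2.28 CPM in NT and 82 and 30.5 CPM in IR+Gli1 (4.94 ± 0.69, adjusted p = 0.00449). In both, IR+Gli1 1-2 was further from NT than IR+Gli1 3, as in 35 of the 37 genes of the list and 77% of all higher genes. Ifit1bl1, an Ifit relative among the 12 largest rises, measured 0.121 and 0.147 CPM in NT and 23.3 and 3.28 CPM in IR+Gli1 (6.04 ± 0.98, adjusted p = 0.00553). Slfn4, a Schlafen gene of myeloid cells, measured 0.0607 and 0.0734 CPM in NT and 95.6 and 18.7 CPM in IR+Gli1 and had a log2 fold change of 8.7 ± 1.2, adjusted p = 0.00517. Reads that align to several places were not counted, so Schlafen, Ifit, Gbp, H2, Ly6, haemoglobin and kallikrein genes with near-identical copies have less certain levels.

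The GTPases, which attack the membranes around intracellular microbes, all rose. Gbp4 measured 1.03 and 0.991 CPM in NT and 45.2 and 19.4 CPM in IR+Gli1 (4.91 ± 0.46, adjusted p = 0.000666), and Gbp9 measured 1.46 and 0.881 CPM in NT and 25.1 and 13.4 CPM in IR+Gli1 (3.95 ± 0.40, adjusted p = 0.000629). Irgm2 had a log2 fold change of 3.38 ± 0.32 and Gbp7 of 2.92 ± 0.29. Gbp2 measured 3.34 and 4.48 CPM in NT and 242 and 69.1 CPM in IR+Gli1 and Igtp 4.06 and 4.92 CPM in NT and 88.7 and 35.5 CPM in IR+Gli1. Each of the 15 genes was higher in IR+Gli1 1-2 than in IR+Gli1 3, and in both higher than in the other 8 samples. The same order held in 62.7% of all higher genes.

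MHC class I genes display cytosolic peptides to cytotoxic T cells. B2m measured 271 and 259.6 CPM in NT and 2754 and 2149.8 CPM in IR+Gli1 (log2 fold change 3.21 ± 0.28, adjusted p = 0.00034). The heavy chains H2-K1 and H2-D1 had log2 fold changes of 3.01 ± 0.31 and 2.61 ± 0.25, and H2-K1 reached 5232 and 3580.2 CPM. Tap1, a subunit of the peptide transporter, measured 12.9 and 15.6 CPM in NT and 164 and 97.3 CPM in IR+Gli1 (3.2 ± 0.28, adjusted p = 0.000548). The groups did not overlap in any of these 4 genes, nor in 59.48% of all genes tested. MHC class II, which is restricted to antigen-presenting cells in most tissues, moved less: 5 of 11 genes were higher and 1 lower. Those higher included the lysosomal protease Ctss (1.75 ± 0.23), the thiol reductase Ifi30 (1.52 ± 0.27) and the peptide exchanger H2-DMb1 (1.27 ± 0.25), while H2-Oa was lower (-1.56 ± 0.40). H2-Oa was -0.88 under total-count scaling and did not pass there (adjusted p = 0.0857). Ciita, the regulator of class II genes, measured 1.15 and 1.65 CPM in NT and 3.73 and 2.17 CPM in IR+Gli1 and did not pass (adjusted p = 0.065). Without NT 1 or without IR+Gli1 1-2, 3 class II genes passed as higher. H2-Oa did not pass without NT 1 or IR+Gli1 1-2 (adjusted p = 0.093 to 0.101).

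Irradiation without Gli1 gave no such calls. In IR against NT, 0 of the 37 interferon genes, 0 of the 15 GTPases and 0 of the 20 MHC class I genes passed with edgeR, beside 0.517% of all genes higher and 0.161% lower, and 2, 0 and 1 had an unadjusted p under 0.05. The difference itself was tested: IR+Gli1 was higher than IR in 37, 15 and 20 genes, and higher than IR+GFP in 37, 15 and 20, beside 9.7% and 8.23% of all genes. Against IR+Shh it was higher in 36, 14 and 20, beside 4.99% of all genes. Fits of only the 2 groups compared called 1 gene of all tested against IR+GFP and 9 against IR+Shh. The calls against these 2 groups therefore rest on the spread of all 10 samples. IR+Shh lay somewhat above NT, with medians of 0.60, 0.72 and 0.33 in the 3 lists and 0, 0 and 1 genes that passed, beside 1.36% of all genes.

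**Figure D2:**
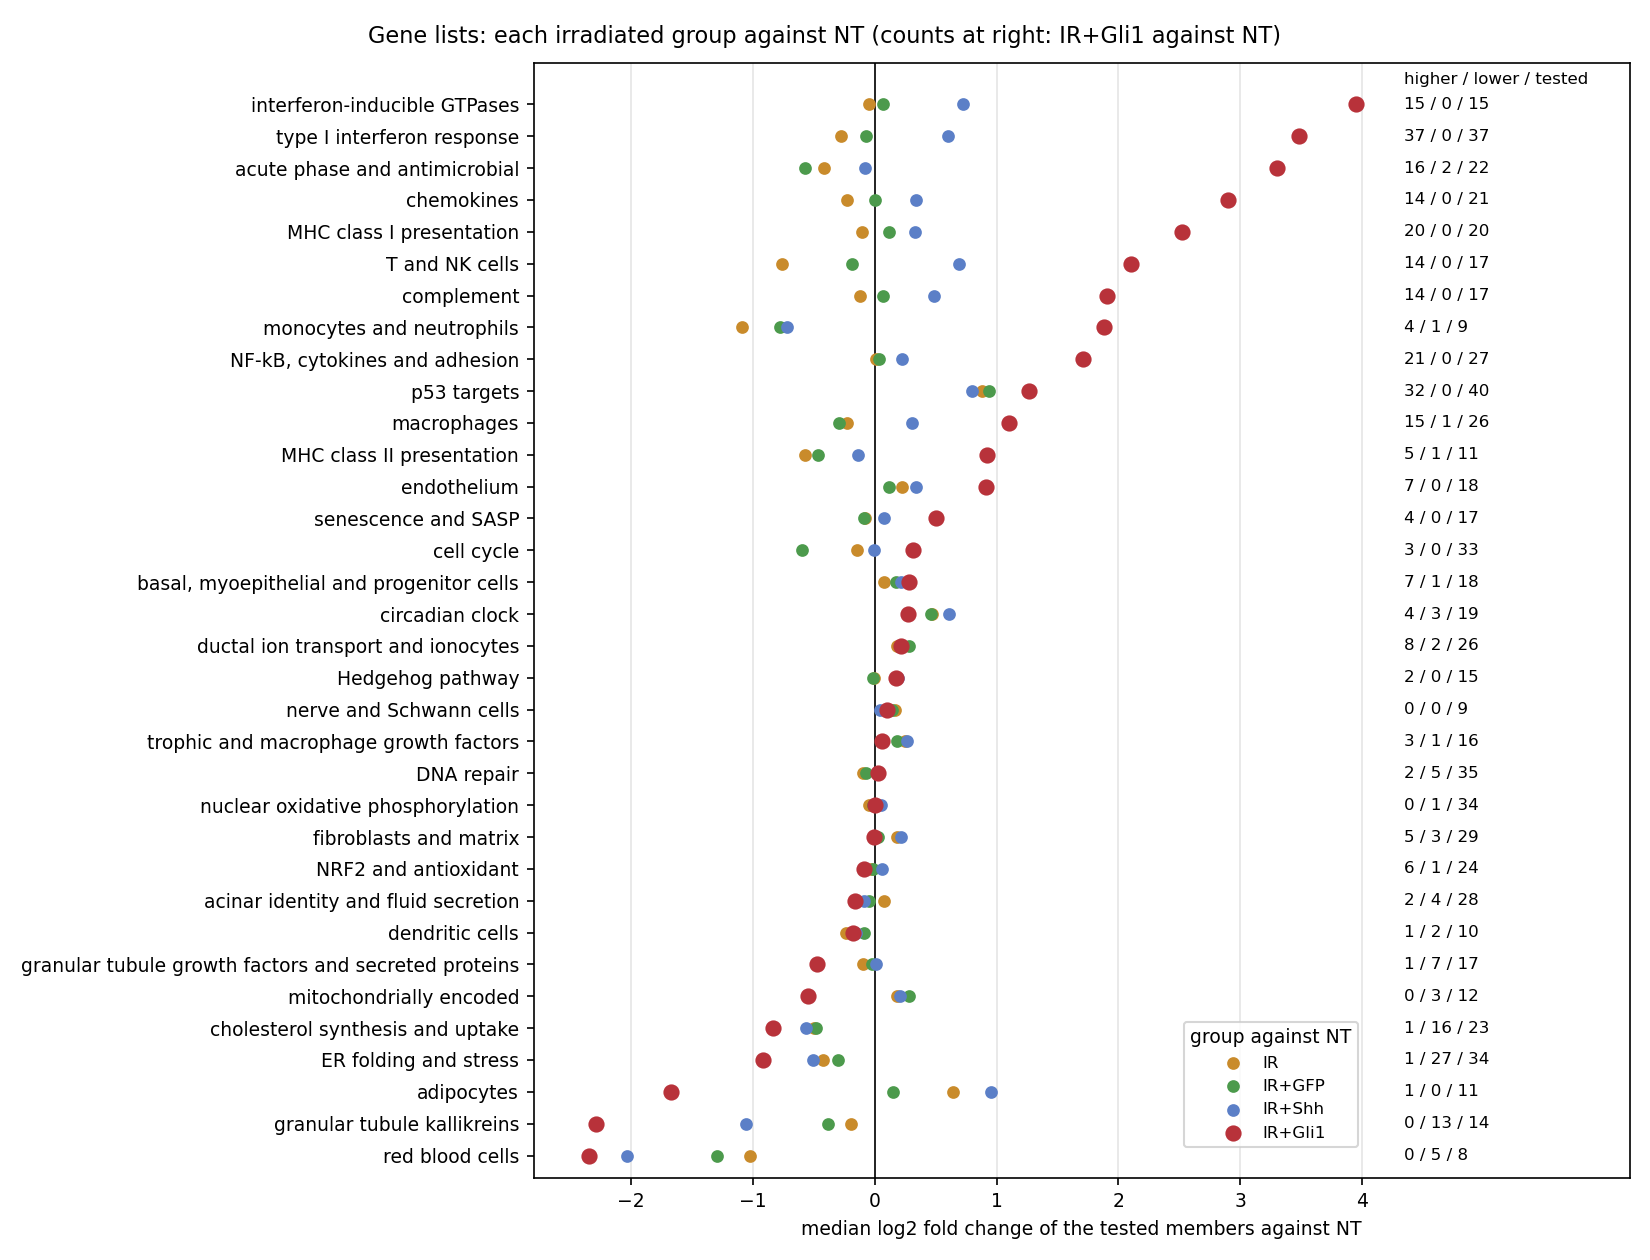
Median log2 fold change against NT of the tested genes of each list with at least 8 of them (horizontal axis, 1 point per irradiated group), with the numbers higher, lower and tested in IR+Gli1 at the right. In IR+Gli1 the interferon, GTPase and MHC class I lists have every gene higher and medians of 3.49, 3.95 and 2.53, and the kallikreins have 13 of 14 genes lower and a median of -2.29.

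Acute phase and antimicrobial genes rose with them. Of 22 genes tested, 16 were higher and 2 lower, beside 12.3% and 11.4% of all genes, with a median of 3.3. In each of the 16, IR+Gli1 1-2 was the highest sample of the series and IR+Gli1 3 the next. The same order held in 62.7% of all higher genes. Lrg1, a secreted leucine-rich glycoprotein, measured 2.31 and 3.45 CPM in NT and 33.8 and 23.7 CPM in IR+Gli1 (3.3 ± 0.27, adjusted p = 0.000294). Serpina3n, a protease inhibitor of the acute phase, measured 0.273 and 0.587 CPM in NT and 14.1 and 8.85 CPM in IR+Gli1 (4.55 ± 0.42, adjusted p = 0.00040). Slpi, an inhibitor of leukocyte proteases, rose from 0.0607 and 0.11 to 16.3 and 8.14 CPM (6.31 ± 0.49, adjusted p = 0.000318). Lcn2, an iron-chelator binding protein chosen after its values were seen, reached 1079 and 456 CPM, from 75.1 and 149 CPM. Haptoglobin (Hp) measured 21.2 and 23.7 CPM in NT and 120.1 and 34.7 CPM in IR+Gli1 and did not pass (adjusted p = 0.076). Chil1, a chitinase-like protein among the 12 largest rises and of no list, measured 0.425 and 0.587 CPM in NT and 57.2 and 15.6 CPM in IR+Gli1 (6.0 ± 0.71, adjusted p = 0.00217). Lcn2 did not pass without NT 1 or IR+Gli1 1-2 (adjusted p = 0.0844 to 0.0903).

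Of 21 chemokine genes tested, 14 were higher and 0 lower, and without NT 2-3 the number higher was 9. The share of all genes higher was 12.3%. Among the attractants of monocytes, Ccl2 measured 0.212 and 0.11 CPM in NT and 43.2 and 8.77 CPM in IR+Gli1 (6.79 ± 0.88, adjusted p = 0.00283), Ccl7 0.0607 and 0.22 CPM in NT and 47.2 and 9.68 CPM in IR+Gli1 (7.12 ± 1.01, adjusted p = 0.00445) and Ccl12 0.394 and 0.404 CPM in NT and 17 and 3.99 CPM in IR+Gli1 (4.5 ± 0.63, adjusted p = 0.00245). All 3 were low in NT, and in IR+Gli1 1-2 they were several times the level of IR+Gli1 3. Cxcl9, an interferon-gamma-induced attractant of T cells, measured 0.0607 and 0.477 CPM in NT and 49.9 and 16.8 CPM in IR+Gli1 (6.69 ± 0.84, adjusted p = 0.00286). Cx3cl1, a membrane-bound chemokine, was already present in NT and rose less and more evenly, from 25.6 and 24.7 to 71.1 and 49.4 CPM (1.26 ± 0.15, adjusted p = 0.00097). Cxcl14, a chemokine of epithelia, measured 28.8 and 26.6 CPM in NT and 15.9 and 24.6 CPM in IR+Gli1 and did not pass (adjusted p = 0.085).

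Genes of NF-kB signalling, cytokines and adhesion were higher in 21 of 27 and lower in 0, and without IR+Gli1 1-2 in 13. Over all genes 12.3% were higher. Nfkbia, the inhibitor that NF-kB itself induces, measured 23.5 and 27.2 CPM in NT and 95.1 and 80.2 CPM in IR+Gli1 (1.79 ± 0.12, adjusted p = 0.000197). Relb, a subunit of the non-canonical pathway, had a log2 fold change of 2.98 ± 0.24, the endothelial adhesion molecule Vcam1 of 2.78 ± 0.25 and the oncostatin M receptor Osmr of 2.19 ± 0.27. Of the cytokines themselves, all chosen after their values were seen, Tnf measured 0.152 and 0.22 CPM in NT and 3.96 and 1.11 CPM in IR+Gli1 (3.37 ± 0.57, adjusted p = 0.00376). Il1b measured 1.27 and 0.514 CPM in NT and 1.15 and 0.514 CPM in IR+Gli1, with overlap between the groups, and did not pass (adjusted p = 0.936). Il6 had too few reads to be tested: 0 CPM in both NT samples, 0.36 and 0 CPM in IR+Gli1.

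Complement, the serum cascade that marks cells and microbes for uptake, was higher in 14 of 17 genes and lower in 0 (median 1.9). The share of all genes higher was 12.3%. Here IR+Gli1 1-2 was the higher IR+Gli1 sample in 10 of the 14 (71.4%), beside 77% of all higher genes. C1ra, a protease of the classical pathway, measured 3.52 and 4.7 CPM in NT and 35.6 and 30.9 CPM in IR+Gli1 (3.0 ± 0.34, adjusted p = 0.00109), and C2 measured 0.667 and 0.587 CPM in NT and 3.31 and 4.07 CPM in IR+Gli1 (2.42 ± 0.28, adjusted p = 0.000905). Serping1, the inhibitor of C1, had a log2 fold change of 1.97 ± 0.24 and C5ar1, the receptor for the C5a fragment, of 3.0 ± 0.39.

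Leukocyte markers gave calls in some lists more than in others. In bulk RNA, more cells of a type and more RNA of a gene per cell cannot be told apart. Of 26 macrophage genes, 15 were higher and 1 lower, and without NT 2-3 it was 8 higher. Over all genes 12.3% were higher and 11.4% lower. Siglec1, an interferon-induced lectin, had a log2 fold change of 2.72 ± 0.22, adjusted p = 0.000294. The scavenger receptor Msr1 measured 0.394 and 0.587 CPM in NT and 15.7 and 6.0 CPM in IR+Gli1 (4.3 ± 0.48, adjusted p = 0.00080), and Cd68, a lysosomal protein, measured 4.25 and 4.51 CPM in NT and 26.4 and 13.4 CPM in IR+Gli1 (2.17 ± 0.33, adjusted p = 0.00303). Several markers carried by most tissue macrophages did not pass. Csf1r, the receptor for the macrophage growth factor, chosen after its values were seen, measured 24.1 and 23.4 CPM in NT and 19.9 and 26.2 CPM in IR+Gli1 (adjusted p = 0.853). Mrc1 measured 7.64 and 7.34 CPM in NT and 4.67 and 5.89 CPM in IR+Gli1 and Cd163 2.85 and 3.08 CPM in NT and 0.666 and 2.57 CPM in IR+Gli1, and neither passed. Under total-count scaling Csf1r passed as higher (0.68), and the sign of Mrc1 changed.

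Some genes of alternatively activated macrophages and of dendritic cells were lower. Retnla measured 4.91 and 14.3 CPM in NT and 0 in both IR+Gli1 samples, at least 247-fold lower for a floor of 3 reads over the group (-7.07 ± 1.32, adjusted p = 0.0151). The irradiated samples of the other groups held 0.173 to 1.44 CPM, also below both NT samples. The lectin Mgl2 measured 2.97 and 3.49 CPM in NT and 0.144 and 0.514 CPM in IR+Gli1 (-3.16 ± 0.54, adjusted p = 0.00404), and Cd209a, a lectin of monocyte-derived dendritic cells, fell from 1.0 and 0.807 CPM to 0 in both, at least 24.6-fold. Of 10 dendritic cell genes, 1 was higher and 2 lower, beside 12.3% and 11.4% of all genes. The median of -0.18 became 0.53 under total-count scaling. The one higher was Bst2 (3.41 ± 0.33), which interferon also induces in other cells. Retnla did not pass without IR+Gli1 1-2 (adjusted p = 0.0861).

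Some monocyte genes rose, and the granule genes Elane, Ngp and Mpo were barely detected. Ly6c2, a surface protein of inflammatory monocytes, measured 0.091 and 0.22 CPM in NT and 66.7 and 15.7 CPM in IR+Gli1 (7.55 ± 0.99, adjusted p = 0.00574), and Plac8 measured 2.18 and 1.91 CPM in NT and 79 and 21.2 CPM in IR+Gli1 (4.57 ± 0.65, adjusted p = 0.00458). Elane and Ngp each had 0 reads in NT and 2 in IR+Gli1, and Mpo did not exceed 0.0734 CPM in NT or IR+Gli1. Whether neutrophils were present was not tested. S100a8, abundant in neutrophils and monocytes, had 0 reads in NT and 3.55 and 0.356 CPM in IR+Gli1, at least 51.1-fold higher, and did not pass (adjusted p = 0.128). Of the 9 genes tested in this list 4 were higher and 1 lower, beside 12.3% and 11.4% of all genes. The receptor Csf3r was among those higher, with 1.52 and 0.881 CPM in NT and 6.52 and 2.65 CPM in IR+Gli1 (1.88 ± 0.47, adjusted p = 0.0194). The lower one was the protease Mmp9, with 1.12 and 1.47 CPM in NT and 0.45 and 0.316 CPM in IR+Gli1 (-1.56 ± 0.37, adjusted p = 0.0161). Mmp9 was -0.86 under total-count scaling and did not pass there (adjusted p = 0.0969). Leaving out NT 1, NT 2-3 or IR+Gli1 1-2 left 2 higher, and leaving out IR+Gli1 3 gave 9. Acod1, the itaconate-producing enzyme of activated macrophages, had 0 reads in NT and 14.7 and 1.62 CPM in IR+Gli1, at least 212-fold higher (6.86 ± 1.4, adjusted p = 0.0276). Ms4a4c, a membrane protein of activated leukocytes, measured 0.091 and 0.514 CPM in NT and 56.5 and 13.6 CPM in IR+Gli1 (6.62 ± 0.96, adjusted p = 0.00504). Acod1 did not pass without NT 1 or NT 2-3 (adjusted p = 0.0836 to 0.0875). Ly6c2 did not pass without NT 1 (adjusted p = 0.0522).

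Genes of T and NK cells were higher in 14 of 17 tested and lower in 0, and 6 passed without NT 1 or without IR+Gli1 1-2, and 8 without NT 2-3. The share of all genes higher was 12.3%. The cytotoxic granule genes led the list. Gzma measured 0.576 and 0.954 CPM in NT and 29.8 and 10.2 CPM in IR+Gli1 (4.61 ± 0.64, adjusted p = 0.00298), Gzmb 1.55 and 1.03 CPM in NT and 31.7 and 12.6 CPM in IR+Gli1 (4.03 ± 0.61, adjusted p = 0.00403) and the pore-forming Prf1 0.455 and 0.661 CPM in NT and 6.92 and 3.79 CPM in IR+Gli1 (3.13 ± 0.46, adjusted p = 0.00232). Nkg7, a granule membrane protein, had a log2 fold change of 2.69 ± 0.48. Genes of the T cell receptor complex were near 0. Cd3e measured 0 and 0 CPM in NT and 0.288 and 0.119 CPM in IR+Gli1, Cd8a 0.0607 and 0.0734 CPM in NT and 0.684 and 0.119 CPM in IR+Gli1 and Trac 0 and 0.0367 CPM in NT and 0.306 and 0.079 CPM in IR+Gli1, all under the filter, and Cd3g and Cd4 were tested and did not pass (adjusted p = 0.121 and 0.0629). Ifng, interferon-gamma itself, had 0 reads in NT and 0.54 and 0.316 CPM in IR+Gli1, at least 9.43-fold higher (adjusted p = 0.0223). These last genes other than Cd3g and Cd4 were chosen after their values were seen. Ifng did not pass without NT 1 or NT 2-3 (adjusted p = 0.0792 to 0.089) and had too few reads to be tested without IR+Gli1 1-2.

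No B or plasma cell gene passed as higher. Of 5 tested, 0 were higher (3 had an unadjusted p under 0.05, in either direction) and 1 was lower, the joining chain Jchain (2.73 and 1.1 CPM in NT and 0.108 and 0.356 CPM in IR+Gli1; -2.82 ± 0.67, adjusted p = 0.016). Of 3 mast cell genes, 0 were higher and 1 was lower, the protease Mcpt4, which measured 0.637 and 0.734 CPM in NT and 0.018 and 0.079 CPM in IR+Gli1. Its pooled ratio was 18.4-fold lower, with a counting interval of 5.86 to 92.6. Jchain did not pass without NT 1 or IR+Gli1 1-2 (adjusted p = 0.0942 to 0.0954). Mcpt4 did not pass without IR+Gli1 1-2 (adjusted p = 0.088).

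**Figure D3:**
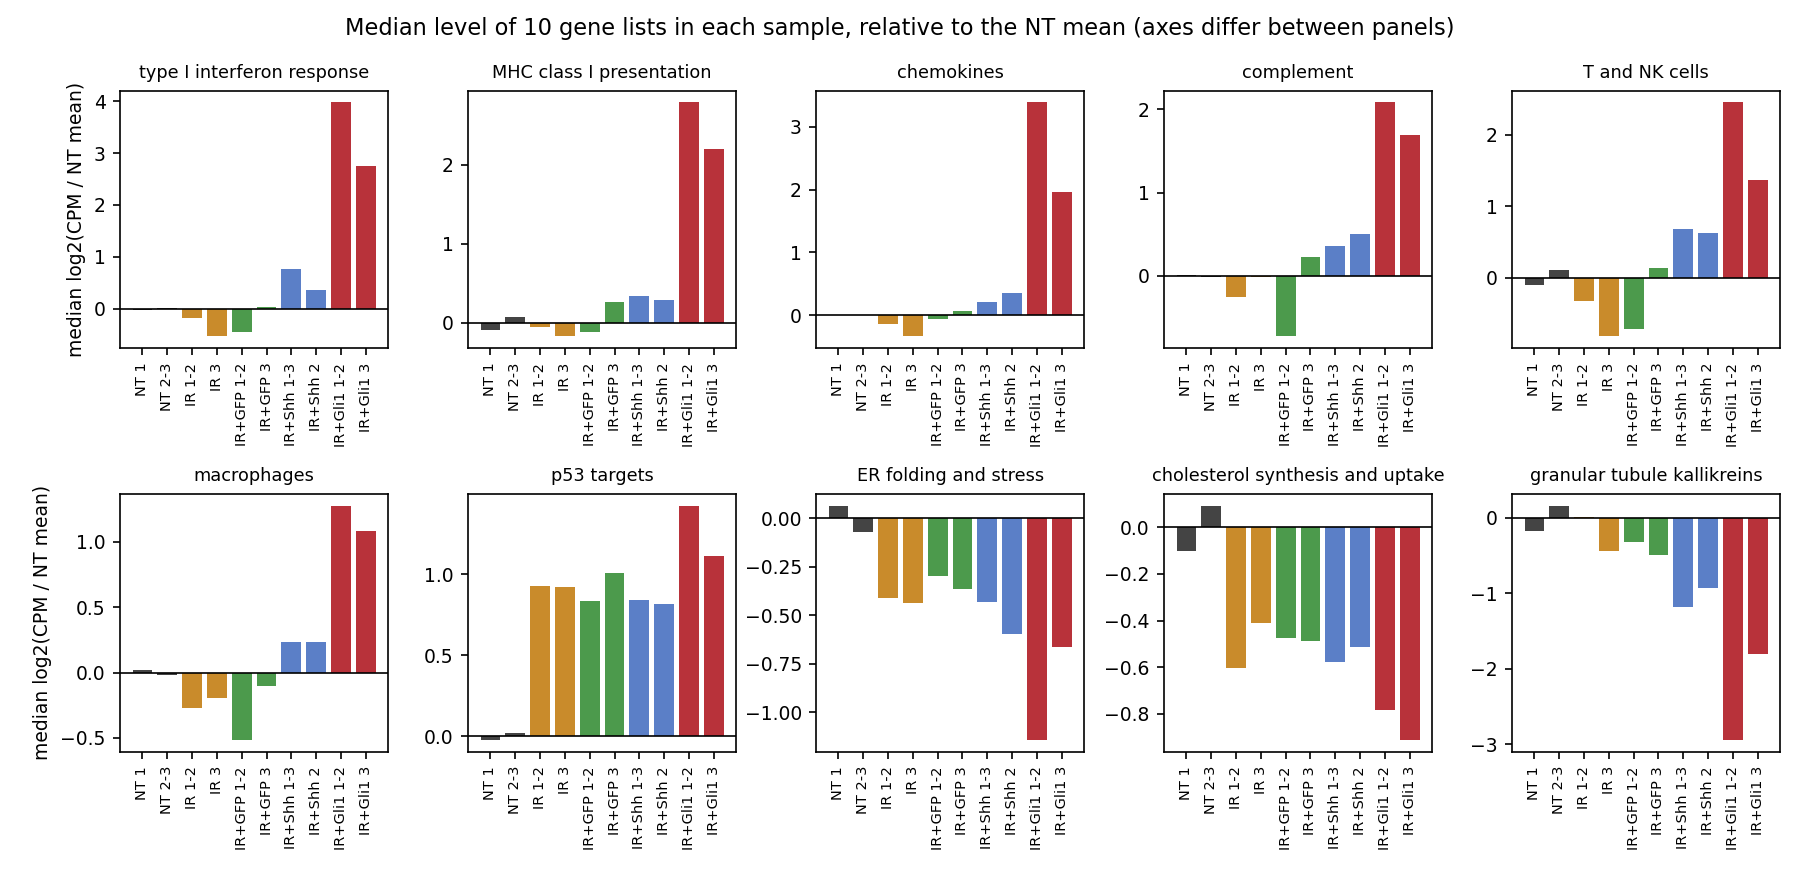
Median log2 level of the tested genes of each list in each sample, relative to the mean of the NT samples. For the interferon list IR+Gli1 1-2 and IR+Gli1 3 lie at 3.98 and 2.75 and for T and NK cells at 2.46 and 1.37, while for p53 targets they lie at 1.42 and 1.11, close to the 0.93 and 0.92 of IR.

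Targets of p53 separated IR+Gli1 from NT, and here most of the distance was shared with the other irradiated groups. Of 40 targets tested, 32 were higher and 0 lower (median 1.27, and 1.11 to 1.42 in the single IR+Gli1 samples). In IR against NT 18 were higher, beside 0.517% of all genes, with a median of 0.88, in IR+GFP 19, beside 0.622%, with 0.94 and in IR+Shh 18 with 0.80. These comparisons share the NT samples. Tested directly, IR+Gli1 exceeded IR in 7 of the 40, beside 9.7% of all genes, IR+GFP in 6, beside 8.23%, and IR+Shh in 7, beside 4.99%. Only 11 of the 32 had both IR+Gli1 samples above all 8 others, beside 37 of 37 in the interferon list and 72.7% of all higher genes.

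Single targets show both patterns. Eda2r, a death receptor of the TNF family, measured 2.76 and 2.42 CPM in NT and 24.2 and 23.1 CPM in IR+Gli1 (3.15 ± 0.18, adjusted p = 6.84e-05), and 20.3 and 24.2 CPM in IR. Trp53inp1, a stress-induced regulator of autophagy and cell death, measured 24.2 and 25.2 CPM in NT and 105 and 102 CPM in IR+Gli1 (2.06 ± 0.14, adjusted p = 0.000197), and 95.4 and 93.5 CPM in IR. In both genes IR overlapped or neighboured IR+Gli1, and the difference between them did not pass (adjusted p = 0.729 and 0.55). Phlda3, which restrains Akt signalling, measured 9.46 and 9.76 CPM in NT and 87.7 and 71.8 CPM in IR+Gli1 (3.04 ± 0.17, adjusted p = 6.84e-05) and 45.3 and 43.4 CPM in IR. It was higher in IR+Gli1 than in IR by 0.85 ± 0.16, adjusted p = 0.00801, as was Cdkn1a by 2.06 ± 0.31, adjusted p = 0.00594. Bax, which permeabilizes mitochondria in apoptosis, measured 11.7 and 13.1 CPM in NT and 55.8 and 38.4 CPM in IR+Gli1 and 26.4 and 32.6 CPM in IR. Gdf15, a secreted stress cytokine, ran the other way among the irradiated groups: it rose from 0.667 and 2.06 CPM in NT to 11 and 8.49 CPM in IR+Gli1, and IR had 33.4 and 19.3 CPM. Bax and Gdf15 were chosen after their values were seen. Rrm2b, a subunit of ribonucleotide reductase, measured 17.2 and 13.9 CPM in NT and 10.9 and 13.4 CPM in IR+Gli1 and did not pass (adjusted p = 0.11). Gdf15 did not pass without NT 1 or IR+Gli1 1-2 (adjusted p = 0.0643 to 0.0924).

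Of 35 DNA repair genes 2 were higher and 5 lower, beside 12.3% and 11.4% of all genes, and the median was 0.03. Lig4, a ligase of end joining, measured 9.8 and 9.54 CPM in NT and 6.05 and 5.25 CPM in IR+Gli1 (-0.76 ± 0.14, adjusted p = 0.00463), and its sign changed under total-count scaling. Xrcc6, the Ku70 subunit that binds broken ends, had a log2 fold change of -0.40 ± 0.10 and also changed sign. Rad52 (0.79 ± 0.19) and Lig1 (0.68 ± 0.17) were higher. The replication licensing factors Mcm7, Mcm3 and Mcm6 were higher (0.59 ± 0.15, 0.95 ± 0.25 and 0.69 ± 0.19). Among 33 cell cycle genes these 3 passed, beside 12.3% of all genes higher, and none of the others did. Without IR+Gli1 1-2, 0 of them passed, and under total-count scaling 22 did. Mki67, a marker of dividing cells, chosen after its values were seen, measured 3.91 and 3.16 CPM in NT and 4.59 and 3.67 CPM in IR+Gli1, with overlap between groups (adjusted p = 0.635). Lig1 did not pass without NT 1, NT 2-3 or IR+Gli1 1-2 (adjusted p = 0.0613 to 0.112). Mcm3 did not pass without NT 2-3 or IR+Gli1 1-2 (adjusted p = 0.093 to 0.113). Mcm6 did not pass without NT 1, NT 2-3 or IR+Gli1 1-2 (adjusted p = 0.0751 to 0.153). Mcm7 did not pass without NT 1 or IR+Gli1 1-2 (adjusted p = 0.0772 to 0.112). Rad52 did not pass without NT 1 or IR+Gli1 1-2 (adjusted p = 0.0672 to 0.0777). Xrcc6 did not pass without NT 2-3, IR+Gli1 1-2 or IR+Gli1 3 (adjusted p = 0.0525 to 0.0689).

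Genes for the products of the granular convoluted tubules were lower in IR+Gli1. Kallikrein genes were lower in 13 of 14, beside 11.4% of all genes, with a median of -2.29. All 13 also passed with any 1 NT or IR+Gli1 sample left out and under total-count scaling. In the fit of the 4 NT and IR+Gli1 samples alone 4 of the 14 passed as lower. Klk1b9, which can process epidermal growth factor, measured 25118 and 31921 CPM in NT and 2080.0 and 4545 CPM in IR+Gli1 (-3.11 ± 0.38, adjusted p = 0.00109). Klk1b8 measured 7009.8 and 12588 CPM in NT and 643 and 1306 CPM in IR+Gli1 (-3.33 ± 0.50, adjusted p = 0.00326), and Klk1b27 measured 4009.8 and 6353 CPM in NT and 296 and 828 CPM in IR+Gli1 (-3.2 ± 0.50, adjusted p = 0.00421). In all 13, IR+Gli1 1-2 was the lowest sample of the 10 and IR+Gli1 3 the next. The same order held in 59.3% of all lower genes. Klk1b1 and Klk1b16 had log2 fold changes of -2.66 ± 0.37 and -2.27 ± 0.36. The exception was Klk1, the tissue kallikrein, which measured 3932 and 3546 CPM in NT and 2344 and 3659 CPM in IR+Gli1 and did not pass (adjusted p = 0.587). Its sign changed under total-count scaling.

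In IR no kallikrein was called. Of the 14 genes 0 were lower in IR against NT with edgeR (0 at an unadjusted p under 0.05), and the median was -0.20. IR+Gli1 was lower than IR in 13, than IR+GFP in 13 and than IR+Shh in 2, beside 7.81%, 5.71% and 2.76% of all genes. With only the 2 groups fitted, 0 genes of all tested were lower against IR+GFP and 1 against IR+Shh. IR+Shh was intermediate for Klk1b9, at 10080.0 and 11955 CPM. Over the 14 genes its median against NT was -1.05. None of them passed as lower in IR+Shh, and 11 had an unadjusted p under 0.05.

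Other products of the tubules were lower in 7 of 17 and higher in 1, and total-count scaling turned the list's median from -0.48 to 0.22. Crisp1, a cysteine-rich secretory protein, measured 1134 and 1665 CPM in NT and 74.8 and 141 CPM in IR+Gli1 (-3.7 ± 0.44, adjusted p = 0.00156), and its relative Crisp3 measured 52738 and 47596 CPM in NT and 13000.0 and 17616 CPM in IR+Gli1 (-1.71 ± 0.24, adjusted p = 0.0016). Crisp1 was also lower in IR+Shh than in NT (-2.18 ± 0.41, adjusted p = 0.0429). Fgf1, a fibroblast growth factor, and Prss12, a serine protease, had log2 fold changes of -1.1 ± 0.18 and -2.31 ± 0.45 in IR+Gli1 against NT. Fgf1 was -0.37 under total-count scaling and did not pass there (adjusted p = 0.061). Renin (Ren1), chosen after its values were seen, measured 68.8 and 76.1 CPM in NT and 24.9 and 83.4 CPM in IR+Gli1, with the 2 IR+Gli1 samples on either side of NT (adjusted p = 0.585). Syt16, a synaptotagmin among the 12 largest falls, measured 27.8 and 33.2 CPM in NT and 0.937 and 2.53 CPM in IR+Gli1 (-4.2 ± 0.57, adjusted p = 0.00369), and the other 6 samples held 5.90 to 24.4 CPM.

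**Figure D4:**
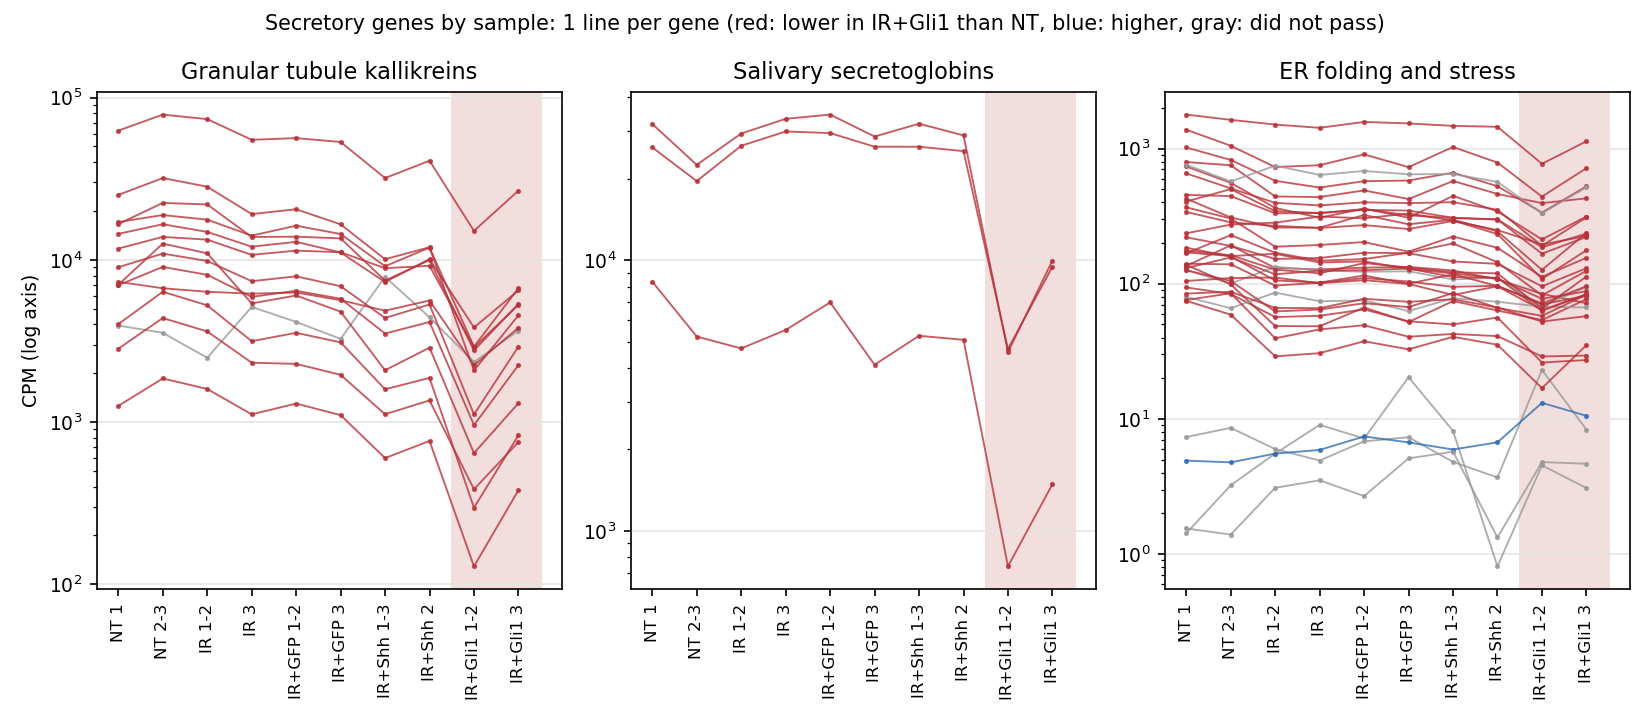
Level of the kallikreins, secretoglobins and genes of folding in the endoplasmic reticulum in each of the 10 samples (CPM on a log axis, 1 line per gene, red where lower in IR+Gli1 than in NT, blue where higher, gray where it did not pass). In the 13 red kallikreins IR+Gli1 1-2 is the lowest sample and IR+Gli1 3 the next, and in the secretoglobins the 8 samples outside IR+Gli1 lie above both.

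The 3 secretoglobins tested, small secreted proteins of saliva that carry lipids, were lower in IR+Gli1. Scgb1b27 measured 31899 and 22529 CPM in NT and 4576 and 9978 CPM in IR+Gli1 (-1.9 ± 0.35, adjusted p = 0.00529). Scgb2b27 measured 26146 and 19622 CPM in NT and 4700.0 and 9469 CPM in IR+Gli1 (-1.69 ± 0.31, adjusted p = 0.00555), and Scgb2b26 measured 8339.5 and 5226 CPM in NT and 739 and 1487 CPM in IR+Gli1 (-2.61 ± 0.39, adjusted p = 0.00289). Scgb1b27 ranged from 22529 to 34563 CPM in the 8 other samples, so both IR+Gli1 samples lay below all of them. IR+Gli1 was lower in all 3 genes than IR, IR+GFP and IR+Shh as well, beside 7.81%, 5.71% and 2.76% of all genes. With only the 2 groups fitted, 0 genes of all tested were lower against IR+GFP and 1 against IR+Shh.

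Of 28 acinar genes, beside 12.3% and 11.4% of all genes higher and lower, 2 were higher, 4 lower, and the median turned from -0.16 to 0.59 under total-count scaling. With NT 1 left out 7 were lower, with NT 2-3 left out 2, and with IR+Gli1 1-2 left out 1. Bhlha15 (Mist1), the transcription factor of secretory cell maturation, measured 244 and 241 CPM in NT and 100.5 and 173 CPM in IR+Gli1 (-0.83 ± 0.21, adjusted p = 0.020), and the prolactin receptor Prlr had a log2 fold change of -0.76 ± 0.17. Under total-count scaling Bhlha15 was -0.12 and Prlr -0.01, and neither passed (adjusted p = 0.51 and 0.96). Higher were Ano1, the chloride channel of fluid secretion (0.60 ± 0.15), and the antimicrobial lactoperoxidase Lpo (0.87 ± 0.23). The water channel Aqp5 measured 202 and 380.1 CPM in NT and 137 and 191 CPM in IR+Gli1 and did not pass (adjusted p = 0.069). Ano1 did not pass without NT 2-3 or IR+Gli1 1-2 (adjusted p = 0.0608 to 0.0955). Bhlha15 did not pass without NT 1 or NT 2-3 (adjusted p = 0.0674 to 0.0697). Lpo did not pass without NT 2-3 or IR+Gli1 3 (adjusted p = 0.093 to 0.119). Prlr did not pass without NT 1 or IR+Gli1 1-2 (adjusted p = 0.0569 to 0.0728).

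Duct genes were higher in 8 of 26 and lower in 2, beside 12.3% and 11.4% of all genes. The number higher was 3 without NT 2-3, 5 without IR+Gli1 1-2 and 20 under total-count scaling. Foxi2, a forkhead factor, measured 8.83 and 8.74 CPM in NT and 19.7 and 18.1 CPM in IR+Gli1 (1.1 ± 0.12, adjusted p = 0.000778), and Ascl3, a transcription factor of duct ionocyte-like cells, measured 21.1 and 17.7 CPM in NT and 40.3 and 40.7 CPM in IR+Gli1 (1.06 ± 0.13, adjusted p = 0.00122). Scnn1a, a subunit of the epithelial sodium channel, had a log2 fold change of 0.90 ± 0.14, and the potassium channel Kcnk1 of -1.05 ± 0.21. Kcnk1 was -0.33 under total-count scaling and did not pass there (adjusted p = 0.095). Ascl3 was also higher in IR than in NT (0.89 ± 0.14, adjusted p = 0.0242), and the difference between IR+Gli1 and IR did not pass (adjusted p = 0.429). Basal and myoepithelial genes were higher in 7 of 18 and lower in 1, and higher in 4 without IR+Gli1 1-2. The keratins Krt17 and Krt5 (1.5 ± 0.18 and 0.81 ± 0.13) and the hemidesmosome integrin Itgb4 (1.5 ± 0.19) were higher, and Krt15 was lower (-2.35 ± 0.50). Krt15 did not pass without NT 1 (adjusted p = 0.0696).

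Genes of folding and export in the endoplasmic reticulum (ER) were lower in 27 of 34 and higher in 1, with a median of -0.92. Over all genes 11.4% were lower and 12.3% higher. Under total-count scaling 7 were lower and the median was -0.19. Dnajb9, a co-chaperone that unfolded proteins induce, measured 93.9 and 84 CPM in NT and 26.1 and 27.3 CPM in IR+Gli1 (-1.73 ± 0.12, adjusted p = 0.000197) and 56.7 and 57.9 CPM in IR. Ostc, a subunit of the glycosylation complex, measured 75.7 and 85 CPM in NT and 29 and 29.4 CPM in IR+Gli1 (-1.46 ± 0.12, adjusted p = 0.000294) and 39.5 and 45.9 CPM in IR. In both genes IR lay between NT and IR+Gli1 without overlap. The translocon proteins Ssr2 and Ssr3 had log2 fold changes of -0.88 ± 0.10 and -1.21 ± 0.14. Ssr2 was -0.14 under total-count scaling and did not pass there (adjusted p = 0.395). The single higher gene was Ddit3 (CHOP), a transcription factor of ER stress, which measured 4.91 and 4.77 CPM in NT and 13.2 and 10.5 CPM in IR+Gli1 (1.28 ± 0.16, adjusted p = 0.00104) and is named for being the only one. In IR against NT 3 of the list were lower, beside 0.161% of all genes, with a median of -0.43. IR+Gli1 was lower than IR in 12, beside 7.81% of all genes.

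Cholesterol genes were lower in 16 of 23 and higher in 1, beside 11.4% and 12.3% of all genes. The number lower was 9 without IR+Gli1 1-2, and under total-count scaling it was 8 with a median of -0.07. Sqle, squalene epoxidase, measured 16.4 and 23.8 CPM in NT and 5.48 and 6.32 CPM in IR+Gli1 (-1.76 ± 0.19, adjusted p = 0.000706) and 7.71 and 8.76 CPM in IR. The synthesis enzymes Fdps, Msmo1 and Sc5d had log2 fold changes of -1.36 ± 0.17, -1.3 ± 0.17 and -1.15 ± 0.16. Msmo1 was -0.53 under total-count scaling and did not pass there (adjusted p = 0.0574). Unlike the kallikreins, this list separated IR+Gli1 from the other irradiated groups in fewer genes. IR+Gli1 was lower than IR in 7, than IR+GFP in 3 and than IR+Shh in 0 (6 genes at an unadjusted p under 0.05, in either direction). The shares of all genes lower in these comparisons were 7.81%, 5.71% and 2.76%.

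Of 12 genes encoded in mitochondria 3 were lower, and 8 without IR+Gli1 3. They were mt-Nd3, mt-Co3 and mt-Atp6 (-0.77 ± 0.14, -0.81 ± 0.17 and -0.55 ± 0.18), and under total-count scaling 0 were lower and 3 higher, with the median at 0.19 in place of -0.55. Of 34 nuclear genes of oxidative phosphorylation, 1 was lower, Ndufa1 (-0.60 ± 0.12), and the median was 0.00. Under total-count scaling 33 of the 34 passed as higher. Of 24 antioxidant genes 6 were higher and 1 lower, beside 12.3% and 11.4% of all genes, and the median of -0.08 became 0.67 under total-count scaling. Leaving out NT 1 left 2 of them higher and leaving out NT 2-3 or IR+Gli1 1-2 left 3, while total-count scaling gave 17. The metallothioneins, which bind zinc and copper, were among them: Mt2 measured 22.6 and 28.3 CPM in NT and 66.1 and 59.8 CPM in IR+Gli1 (1.31 ± 0.13, adjusted p = 0.000577), and Mt1 had a log2 fold change of 0.83 ± 0.15. Clock genes were higher in 4 and lower in 3 of 19, beside 12.3% and 11.4% of all genes. Nfil3, a repressor of the clock output, measured 12.4 and 17.3 CPM in NT and 7.51 and 7.11 CPM in IR+Gli1 (-1.01 ± 0.21, adjusted p = 0.00918), and Per1 was higher (0.84 ± 0.21). Nfil3 was -0.26 under total-count scaling and did not pass there (adjusted p = 0.372). The time of day at which glands were taken is not given in the labels. The number of clock genes higher was 2 with any 1 sample left out and 15 under total-count scaling. Nfil3 did not pass without NT 2-3 (adjusted p = 0.0521). Per1 did not pass without NT 1 or IR+Gli1 3 (adjusted p = 0.0766 to 0.122). mt-Atp6 did not pass without NT 1 or IR+Gli1 1-2 (adjusted p = 0.14 to 0.218).

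Endothelial genes were higher in 7 of 18 and lower in 0 (2 higher without NT 2-3, 4 without IR+Gli1 1-2, 17 under total-count scaling). Over all genes 12.3% were higher. The junction protein Pecam1 measured 6.86 and 5.03 CPM in NT and 17.4 and 15.1 CPM in IR+Gli1 (1.44 ± 0.27, adjusted p = 0.00668). Ackr1, a chemokine-binding protein of venules, measured 0.091 and 0.147 CPM in NT and 2.34 and 0.869 CPM in IR+Gli1 (3.18 ± 0.62, adjusted p = 0.00678). Of 29 fibroblast and matrix genes 5 were higher and 3 lower, beside 12.3% and 11.4% of all genes, with a median of -0.01 that became 0.73 under total-count scaling. Those higher included matrix proteases and their inhibitor: Mmp3 measured 1.85 and 2.13 CPM in NT and 11.1 and 8.85 CPM in IR+Gli1 (2.29 ± 0.22, adjusted p = 0.000479), Timp1 1.0 and 1.32 CPM in NT and 10.3 and 4.7 CPM in IR+Gli1 (2.64 ± 0.40, adjusted p = 0.0024), and Mmp14 had 1.18 ± 0.30. Col5a1, a fibrillar collagen chain, was lower (-1.41 ± 0.29). The number higher was 2 without NT 1 or without IR+Gli1 1-2, and the number lower was 0 without IR+Gli1 1-2, 8 without IR+Gli1 3 and 9 with the block for library numbers. Col5a1 did not pass without IR+Gli1 1-2 (adjusted p = 0.0546). Mmp14 did not pass without NT 1 or IR+Gli1 1-2 (adjusted p = 0.092 to 0.121).

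Of 16 trophic factors, 3 were higher and 1 lower, beside 12.3% and 11.4% of all genes. Both ligands of the macrophage receptor Csf1r were among them: Il34 measured 12.7 and 11.9 CPM in NT and 32.4 and 33.9 CPM in IR+Gli1 (1.43 ± 0.13, adjusted p = 0.000365), and Csf1 measured 26.6 and 22.8 CPM in NT and 70.6 and 49.9 CPM in IR+Gli1 (1.29 ± 0.16, adjusted p = 0.00101). Fgf7, a growth factor for epithelia, had a log2 fold change of 0.96 ± 0.17. Ntrk2, a neurotrophin receptor, was lower (-2.99 ± 0.74), with 1.4 and 6.68 CPM in NT. Of 17 genes of senescence and its secretory phenotype 4 were higher and 0 lower, beside the same shares of all genes. Osteopontin (Spp1) measured 8.95 and 5.25 CPM in NT and 45.8 and 23 CPM in IR+Gli1 (2.27 ± 0.34, adjusted p = 0.00366). Lmnb1, whose loss is a mark of senescent cells, was higher (0.88 ± 0.22). Lmnb1 did not pass without NT 1, NT 2-3 or IR+Gli1 1-2 (adjusted p = 0.0578 to 0.102). Ntrk2 did not pass without NT 2-3 or IR+Gli1 1-2 (adjusted p = 0.0995 to 0.132).

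The tissue that glands carried along differed in one sample. Summed over the sublingual gland list, NT 2-3 held 34694 CPM, NT 1 9.77 CPM and the other 8 samples 5.35 to 197 CPM. These genes were left out of the lists and named genes. With the sublingual genes included, NT 2-3 exceeded NT 1 more than 2-fold in 48 of the 1635 lower genes (2.94%) and in 469 of all tested (3.28%). Mup6, Galnt5 and Sel1l3, all among the 12 largest falls, were of this kind. Mup6 measured 0.273 and 20.2 CPM in NT and 0.018 and 0.0395 CPM in IR+Gli1, Galnt5 1.3 and 19.2 CPM in NT and 0.108 and 0.237 CPM in IR+Gli1 and Sel1l3 29.7 and 189.7 CPM in NT and 4.81 and 5.33 CPM in IR+Gli1, and they passed in 2, 1 and 2 of 4 fits with 1 sample left out. Whether sublingual tissue gave their high values in NT 2-3 was not tested. Lyz1, a lysozyme, fell in a similar pattern (1.73 and 6.02 CPM in NT and 0.126 and 0 CPM in IR+Gli1; -4.71 ± 0.99, adjusted p = 0.0125) and passed in 4 of 4.

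Markers of other tissues were read beside 12.3% of all genes higher. Skeletal muscle genes were higher in 1 of 6, Mb (3.45 ± 0.48), adipocyte genes in 1 of 11, Cidea (1.26 ± 0.37), and nerve genes in 0 of 9 (0 at an unadjusted p under 0.05 with edgeR). None of the 3 lists had a gene lower. The median of the adipocyte genes was -1.68, and several were uneven in NT: Car3, a carbonic anhydrase chosen after its values were seen, measured 0.091 and 3.89 CPM in NT and 0 in both IR+Gli1 samples, and did not pass. Red blood cell genes were lower in 5 of 8, with 1 lower under total-count scaling, 1 when NT 1, NT 2-3 or IR+Gli1 1-2 was left out, and 3 when IR+Gli1 3 was. The list summed to 108 and 142 CPM in NT, 15.4 and 11.7 CPM in IR+Gli1 and 7.08 to 56.3 CPM in the other irradiated samples, which lay below NT as well. Hbb-bt measured 9.43 and 14 CPM in NT and 0.955 and 0.672 CPM in IR+Gli1 and Hba-a1 15.3 and 25 CPM in NT and 2.61 and 1.54 CPM in IR+Gli1, and both passed in 0 of 4 fits with 1 sample left out. Cidea did not pass without NT 1, NT 2-3 or IR+Gli1 1-2 (adjusted p = 0.112 to 0.208).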

How the data were processed

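Total RNA of submandibular glands was made into 15 TruSeq libraries and sequenced on an Illumina HiSeq, per the labels. The deposited files hold raw read counts per Ensembl gene, which the authors made on mm10 and GRCm38. The submitters' processing notes name HTSeq 0.10.0, TopHat2 2.0.13, DESeq2 and Bowtie 0.12.2. The DESeq2 version, strand setting and annotation release are not given in the sources used here, so antisense and overlapping genes cannot be told apart. The tables' closing lines count reads with several alignments apart from genes. Gene reads ranged from 18205941 to 41064723 per library, and symbols from GENCODE vM21 matched 96.2% of the 39179 identifiers.

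Libraries of a group with a mean chi-square under 1 over genes with at least 20 reads were combined by the rounded mean of their counts, which left 10 samples. Counting intervals (95%) and floors of 3 reads come from these averaged counts and approximate counting error only. edgeR 4.0.16 (R 4.3.3) was used with filterByExpr, TMM, a prior count of 2 and robust quasi-likelihood tests, two-sided, with 1 mean per group and 5 residual degrees of freedom. P-values were adjusted by Benjamini-Hochberg over 14300 genes. The scripts were tested on simulated data.

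The comparison and the 39 gene lists were chosen with earlier results of these data known. Lists are described by counts and medians. Named genes were Gli1, Shh, Saa3, Cdkn1a and Egf, the 12 largest rises and 12 largest falls among genes that passed, did not overlap between NT and IR+Gli1 and averaged 2 CPM or more in 1 group, then per list the 4 passing genes of smallest adjusted p and up to 2 others. Unnamed gene models and sublingual genes were passed over. Others are marked in the text. A few genes that the rule names are not reported here. Same-numbered libraries of IR+GFP and IR+Gli1 deviated together from their group means (r = 0.493 to 0.521 in 3 pairs, numbers from the labels, which do not say what a number shares). As libraries 1 and 2 are near-identical, these 3 pairs amount to 1 contrast, library 3 against the others. The 27 other pairs, IR+Gli1 with NT among them, had r from -0.0984 to 0.0997.

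Alternatives were DESeq2 1.42.0 and its size factors, upper-quartile scaling, limma-voom (limma 3.58.1), other low-count filters, 15 separate libraries with and without a replicate block, only the groups compared, no sublingual genes, and each sample left out. Total-count scaling and the deeper library of each pair were others. Protein-coding genes alone, leaving out IR+GFP 3 and IR+Gli1 3, and a replicate block of IR+GFP and IR+Gli1 were chosen after seeing the data.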

Additional observations from a re-analysis of the deposited data

Results flagged for a closer look

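Reads that the count tables give to no gene were more frequent in every IR+Gli1 library than in every NT library, in data that the comparisons above do not use. Reads aligned to several places made up at least 4.683% of the reads in IR+Gli1 libraries (up to 7.53%) and 3.18% to 4.61% in NT. Reads outside annotated genes made up at least 2.723% in IR+Gli1 (up to 3.81%) and 1.31% to 1.58% in NT, and in IR they made up 1.98% to 2.36%. Reads that overlap several genes made up at least 2.54% in IR+Gli1 (up to 3.3%) and 2.27% to 2.28% in NT. The first 2 shares were not particular to IR+Gli1. IR+GFP 3 had 8.22% of reads with several alignments, above every IR+Gli1 library. Reads outside annotated genes made up 2.60% to 3.02% in IR+GFP, which overlapped IR+Gli1. The part of these shares in any result was not tested. No group has the 4 samples that a search for outlying samples needs.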

How the results depend on the processing

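Counts of genes passed depend on the scaling, on which libraries are taken as independent and on which groups give the spread. Total-count scaling gave 9259 higher and 226 lower in IR+Gli1 against NT, and 9752, 9749 and 8092 changed against IR, IR+GFP and IR+Shh. It turned the log2 fold changes of Csf1r (0.68) and Gclm (0.44), which passed with the new sign, and of Lig4 (0.0020), Sel1l (0.067), Myh11 (0.091), mt-Nd2 (0.12), Ighm (0.13), Ndufa1 (0.14), mt-Nd4 (0.18), mt-Atp6 (0.19), Dhcr7 (0.19), Ren1 (0.22), Mrc1 (0.23), Tgfb2 (0.24), Atf6 (0.25), Cxcl14 (0.26), Cnn1 (0.27), Mvk (0.34), Xrcc6 (0.36), Rrm2b (0.37), Klk1 (0.40), Smo (0.44) and Il1b (0.70), which did not pass then. A fit of only the groups compared gave 519 and 342, and 1232, 1 and 9. Counting all 15 libraries as separate gave 3805 and 3663, and 6981, 6518 and 6065. With a replicate block added it gave 3818 and 3631, and 7006, 6495 and 6092. A replicate block of only IR+GFP and IR+Gli1, whose same-numbered libraries deviated together, gave 1715 against IR+Shh in place of 1109, stayed within 1.5 times of the counts against NT, IR and IR+GFP, and ended the calls of Mup6 and mt-Atp6. Without a low-count filter 2639 genes changed against IR+Shh, and without IR+GFP 3 and IR+Gli1 3, 2392. Leaving out 1 sample gave 1075 to 1932 higher and 903 to 1681 lower against NT, and 236 to 3229, 91 to 2987 and 0 to 2286 changed against IR, IR+GFP and IR+Shh. Counts against IR+Shh were 4 and 0 without IR+Shh 1-3 and IR+Shh 2. DESeq2 size factors, DESeq2, limma-voom, upper-quartile scaling, a filter at 1 CPM, the deeper library of each pair and protein-coding genes alone stayed within 1.5 times of each of these counts. A few genes changed sign under other settings, and none passed with the new sign. With 1 sample left out Gli1 ranged over -0.057 to 0.22, Pglyrp1 -3.39 to 0.72, Ptch1 -0.19 to 0.27, Csf1r -0.27 to 0.14, Ren1 -1.54 to 0.20 and Il1b -0.73 to 0.66. Without IR+GFP 3 and IR+Gli1 3, Gli1 was -0.059, Ptch1 -0.19 and Il1b 0.32. Under limma-voom Ptch1 was -0.019 and Il1b 0.047, and Il1b was 0.018 with the deeper libraries and 0.24 and 0.25 with 15 libraries, without and with a replicate block. Of the values of 226 named genes under all settings, 3668 had the same direction and call, 345 came to pass, 213 ceased to pass and 40 changed sign. Causes were not tested. With 2 samples per group and 5 residual degrees of freedom, a gene that did not pass may still have changed.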
